A study of Mus musculus with 4 samples.

Results

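The M1 photosensitive ganglion cells of the mouse retina are the cells that the deposited table assigns to type 33_M1, and that assignment alone chose them here. They numbered 1468 of 131379 retinal ganglion cells (RGCs), with 385, 444, 174, 294 and 171 cells in retinas 1 to 5. The tissue was retina of wild-type C57BL/6 mice raised without manipulation, cut en face at 20 µm and imaged with Xenium, which decodes single transcripts in place as puncta, on a panel of 300 genes. The sources used here do not give how cells were outlined and typed, and the types may rest on the same genes that are described below. Whether each of the 5 retinas is from its own animal is not in the labels, so errors and p-values cover the spread between retinas alone. All retinas form 1 group, and the comparisons lie within retinas: 33_M1 against the other 44 types, 33_M1 against the type named 40_M1dup (729 cells), periphery against centre, and the sides of the X and Y axes.

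Intrinsically photosensitive RGCs (ipRGCs) detect light with their own photopigment, melanopsin, in addition to the signals they receive from rods and cones. M1 cells are known for the highest melanopsin content among them, for small somata, and for projections to the suprachiasmatic nucleus and the pretectum, through which light sets the circadian clock and the pupil. The T-box transcription factor Eomes is required for ipRGCs to form and to persist, and Tbx20 is another T-box factor found in these cells. The table holds 4 types with ipRGC names: 33_M1, 40_M1dup, 31_M2 (2002 cells) and 22_M5 (1345 cells).

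Opn4, which encodes melanopsin, is the gene the results turn on. Its promoter is shown because 2 T-box factors mark these cells. The sequence is RefSeq's on build GRCm38.p6, chr14:34600093-34600392, minus strand, from 250 bases before to 50 bases after the gene's start, written 5′ to 3′.
Opn4 promoter: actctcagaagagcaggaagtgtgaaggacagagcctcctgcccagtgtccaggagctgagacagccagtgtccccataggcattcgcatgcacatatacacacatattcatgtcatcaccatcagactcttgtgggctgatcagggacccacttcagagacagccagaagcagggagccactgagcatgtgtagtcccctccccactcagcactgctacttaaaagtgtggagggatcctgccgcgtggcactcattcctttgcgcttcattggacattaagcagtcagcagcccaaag
The T-box motif GGTGTGA, searched on both strands, had 0 matches in the promoters of Opn4, Eomes and Tbx20. It was found in 3.98% of the 32851 promoters of this length, and its absence says only that these letters are not in these windows.

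The 33_M1 cells made up 1.10%, 1.08%, 1.33%, 1.06% and 1.19% of the RGCs in retinas 1 to 5. They were found in 39 of 41 sections, and in the 30 sections with at least 500 RGCs their share had a median of 1.13% (range 0.581% to 2.13%). A 33_M1 cell held a median of 215 ± 12.8 puncta, against 315 ± 14.2 in 40_M1dup and 302 ± 15.3 in the other types (mean ± SD of 5 retina medians). Only 2 of the 45 types were shallower. Levels are therefore given as puncta per 10000 puncta of the same cells, with mean ± SD over 5 retinas, and ratios as log2 ratios per retina with 0.5 per 10000 added to both sides.

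All 3 markers of the label were at least 2-fold higher in 33_M1 than in the mean of the other types in all 5 retinas. The types may rest on these genes, so their levels do not test the label. Opn4 stood at 186, 154, 112, 161 and 110 puncta per 10000 in 33_M1 of retinas 1 to 5, against 9.78 ± 1.52 in the other types. In 40_M1dup it stood at 341, 312, 249, 291 and 191, so that 40_M1dup was higher in every retina and the ranges did not overlap. The other ipRGC types were lower than 33_M1, at 58.7 ± 4.01 in 31_M2 and 30.8 ± 3.04 in 22_M5. The highest of the remaining 41 types was 43_AlphaONS at 16.3 ± 1.62, and the median of those types was 0.83.

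Eomes was highest in 33_M1 among the 45 types, with 247, 233, 197, 265 and 209 puncta per 10000 in retinas 1 to 5. The next type, 40_M1dup, averaged 200 ± 14.1, and the retina ranges of these types overlapped. Lower levels followed in 22_M5 (103 ± 9.71) and 07_Novel (97.2 ± 4.86), which did not differ beyond their spread. Tbx20 had another order. It was highest in 07_Novel (272 ± 18.8), then in 40_M1dup (143 ± 24.7) and 31_M2 (107 ± 13.5), and 33_M1 followed at 74.1 ± 14.3.

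**Figure D1:**
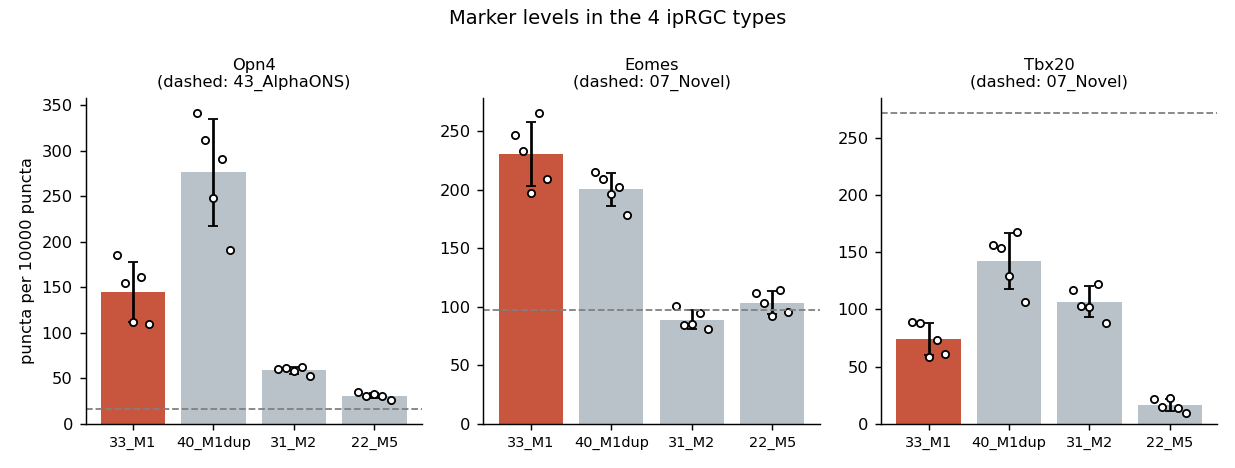
Levels of Opn4, Eomes and Tbx20 in puncta per 10000 puncta in 33_M1, 40_M1dup, 31_M2 and 22_M5. Bars are means over 5 retinas with SD, points are single retinas, and the dashed line is the highest mean among the other 41 types; 33_M1 averaged 145 for Opn4, 230 for Eomes and 74.1 for Tbx20.

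Single 33_M1 cells spread widely in melanopsin. Of the 1468 cells, 621 had no Opn4 punctum, 115 had 1 and 503 had at least 5, with a highest count of 38. The share without a punctum was 42.9%, 42.3%, 45.4%, 36.7% and 47.4% in retinas 1 to 5. At 1 rate per punctum for all 33_M1 cells, 5.68% of them would have had none at their depths. The variance of the count was 6.80 times its mean in 33_M1 and 8.56 times in 40_M1dup.

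In 40_M1dup the share without Opn4 was 18.1%, 13.1%, 18.4%, 18.4% and 41.9% in retinas 1 to 5, and only retina 5 reached the range of 33_M1. Because depth differs between types, each cell was also thinned to 100 puncta, the lowest count of any cell in the table, which left out none. After thinning, 49.3% ± 4.48 of 33_M1 cells kept an Opn4 punctum, against 70.1% ± 11 of 40_M1dup, 35.0% ± 4.09 of 31_M2 and 24.8% ± 1.81 of 22_M5. Without thinning the shares were 57.1% ± 4.02 in 33_M1 and 78.0% ± 11.4 in 40_M1dup.

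The remaining types give the background of these shares. Of the cells of the other 41 types 3.81% ± 0.225 held Opn4 at a median depth of 305 puncta, where 33_M1 cells had 216. After thinning the share was 1.38% ± 0.101, with 0.266% to 14.0% over the single types and 43_AlphaONS at the top. The other markers were also missing from part of the 33_M1 cells: Eomes was found in 77.4% ± 3.01 and Tbx20 in 44% ± 4.25. In 240 of the 1468 cells none of the 3 markers was found, and in 557 all 3 were.

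**Figure D2:**
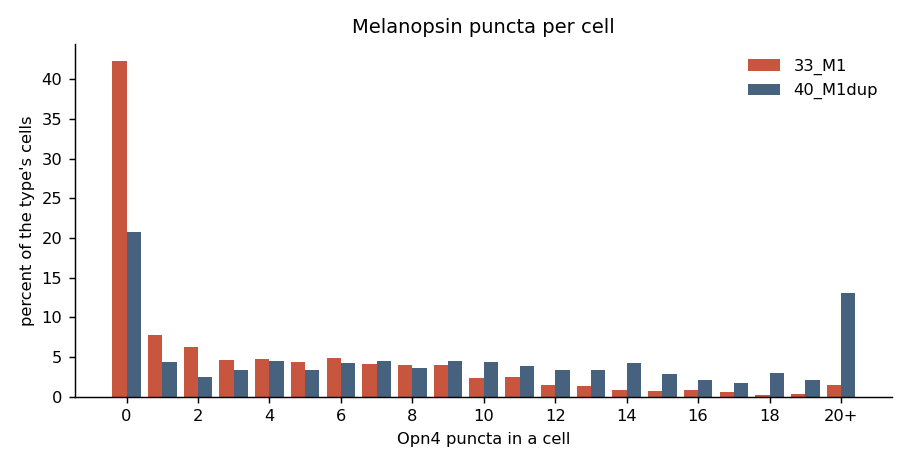
Share of cells (percent of the type) by the number of Opn4 puncta in a cell, in 33_M1 and 40_M1dup over all retinas. In 33_M1 621 of 1468 cells stand at 0 puncta, against 151 of 729 in 40_M1dup.

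The 33_M1 cells without Opn4 differed from those with it in other genes as well. This division was made after the data were seen and uses a gene of the type, so it is given as a description without a test. Cells without Opn4 were shallower, at a median of 182 ± 11.9 puncta against 258 ± 34.9 in cells with it. They were also smaller, at a median volume of 427 ± 17.9 against 512 ± 44.6, and 1.63% ± 1.26 of them were joined from parts, against 13.9% ± 4.91 of those with Opn4. Cells without Opn4 were at least 2-fold lower in all 5 retinas for 15 of 300 genes (5.0%), Opn4 itself by construction, and at least 2-fold higher for 10 (3.33%).

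The lower genes took in most ipRGC genes of the panel. Eomes stood at 107 ± 11.3 puncta per 10000 in cells without Opn4, against 297 ± 28.3 in cells with it. Tbx20 stood at 18.7 ± 4.39 without Opn4 and 104 ± 18.8 with it. The growth factor gene Igf1 stood at 26.7 ± 2.87 without and 100.4 ± 17.7 with it, and the protein kinase gene Prkcq at 11.2 ± 2.58 and 48.3 ± 3.78. Of the 6 ipRGC genes 5 were thus at least 2-fold lower, counting Opn4, and Spon1 was not. Eomes in cells without Opn4 still stood above the 23.0 ± 1.24 of the other types, and 357 of these 621 cells held an Eomes punctum.

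Other lower genes were Col9a1, a collagen chain gene, at 3.77 ± 2.37 without Opn4 and 39.1 ± 10.3 with it, and Nell1, which encodes a secreted protein with EGF-like repeats, at 26.1 ± 2.54 and 123 ± 12.5. The 10 higher genes included Sst, Tmem119, Aif1, Lmo2, Tac2, Igfbp7, Cxcl14, Arpp21 and Gria3. Over single 33_M1 cells thinned to 100 puncta, Opn4 had Spearman correlations of 0.44 with Eomes, 0.42 with Tbx20 and -0.29 with Cxcl14, a chemokine gene (1468 cells, which share retinas and sections).

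Several markers of other cells were higher in the absence of Opn4. Levels are shares of puncta, and the median log2 ratio without over with Opn4 was 0.33 over all 300 genes. List medians were 3.18 for microglia, 2.16 for endothelium, 1.02 for astrocytes and 0.50 for amacrine cells. Of these, the amacrine median lay nearest that of the panel. Tmem119 and Aif1, the 2 microglial markers on the panel, summed to 22.9 to 77.8 puncta per 10000 over the retinas in cells without Opn4, against 0.578 to 8.84 in cells with it and 2.90 to 5.26 in the other types. The endothelial marker Cdh5 ranged from 10.2 to 36.8 without Opn4 and from 2.85 to 9.69 with it. The 14 amacrine markers summed to 478 to 585 without Opn4 and 358 to 389 with it. The largest part was Pax6, at 227 without Opn4, 173 with it and 261 in the other types. The members went both ways: Gad1 (65.6 against 29.7) and Slc32a1 (55.9 against 27.5) were higher without Opn4. Gad2 (31.8 against 52.1) and Th (3.01 against 8.42) were lower. Of the 14, Sst alone was at least 2-fold higher in all 5 retinas. The 2 astrocyte markers summed to 29.1 to 56.3 without Opn4 and 12.4 to 18.1 with it.

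For the remaining lists the ranges overlapped. The 6 Müller glia markers summed to 103 to 147 without Opn4 and 74.4 to 113 with it, and the 7 general RGC markers to 427 to 564 and 496 to 588. The Müller list had a median log2 ratio of 0.45, where the panel had 0.33. In bipolar, horizontal, rod, cone, pericyte and pigment epithelium markers the ranges overlapped too. None of the markers on these lists was at 0 in 33_M1, and the part of other cells' RNA in the differences was not tested.

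The puncta of such markers were unevenly spread over cells, and those of Sst sat in few. At least 2 puncta of Tmem119 were found in 52 of 621 cells without Opn4 (8.37%), 8 of 847 with it (0.945%) and 0.373% of cells of the other types. For Sst, the somatostatin gene, 22 of 621 cells without Opn4 (3.54%) had at least 2 puncta, against 0.0816% of cells of the other types. The 15 richest cells held 81.9% of all Sst puncta of 33_M1. For Tmem119 the 15 richest held 39.2%, for Aif1 41.4% and for Cdh5 29.8%. At least 2 puncta of Tmem119, Aif1, Cdh5 or Sst were found in 21.4% ± 6.03 of cells without Opn4 and 3.48% ± 1.12 of cells with it. The leading results below were also computed with the 33_M1 cells that had Opn4 only, a choice made after seeing the data.

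**Figure D3:**
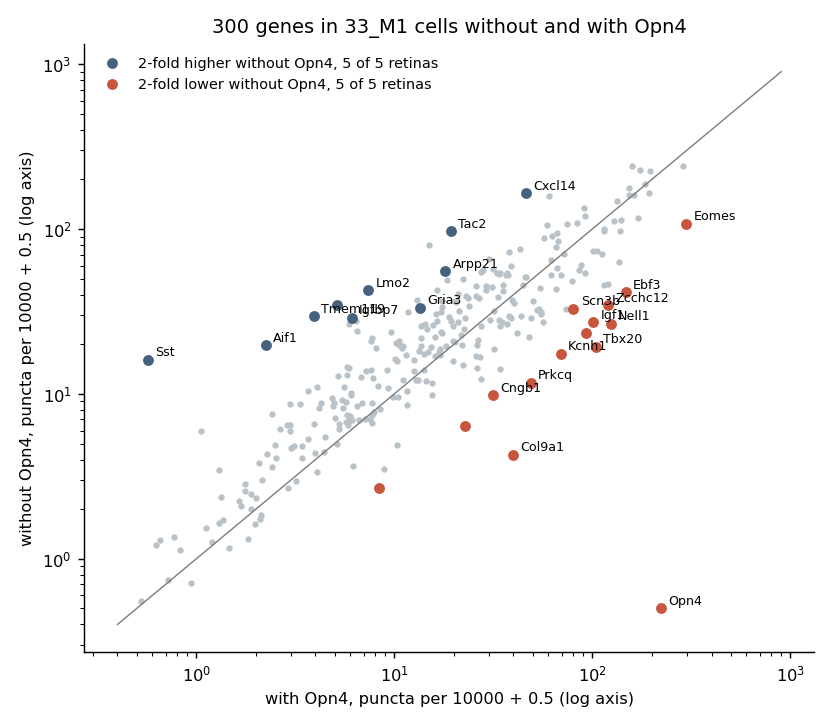
Levels of the 300 genes in 33_M1 cells without Opn4 against 33_M1 cells with Opn4, in puncta per 10000 puncta on log axes, as means over 5 retinas. Coloured points were at least 2-fold higher (10 genes) or at least 2-fold lower (15 genes) without Opn4 in all 5 retinas.

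Against the mean of the other 44 types, 34 of 300 genes were at least 2-fold higher in 33_M1 in all 5 retinas (11.3%) and 8 at least 2-fold lower (2.67%). In puncta per cell, where 33_M1 is shallower, 21 were higher and 29 lower, and with the cells that had Opn4 only 18 were lower. After Opn4 (log2 ratio 3.80 ± 0.17), the highest ratios were those of Zcchc12 (3.32 ± 0.29), a transcriptional coactivator gene, Eomes (3.29 ± 0.15) and Col9a1 (3.05 ± 0.31). Cdkn1c, which encodes the cell cycle inhibitor p57, had 2.63 ± 0.65, Prkcq 2.56 ± 0.19, and Cngb1, a subunit of the cyclic nucleotide-gated channel of rods, 2.47 ± 0.50. Cngb1 was higher in 33_M1 than in any other type, at 23.3 ± 5.45 puncta per 10000. Th, the gene of the dopamine-synthesis enzyme tyrosine hydroxylase, had a ratio of 2.21 ± 0.43 at a level of 6.61 ± 1.84. It averaged 8.38 in 40_M1dup, and the 15 richest 33_M1 cells held 40.3% of the 253 Th puncta of 33_M1. Tbx20, Qpct, Cd24a, Tac2 and Cd9 had ratios between 1.99 and 2.32. Several of these genes were also high in 40_M1dup, so they are not particular to 33_M1. There Zcchc12 averaged 100 puncta per 10000, Col9a1 58.0, Qpct 57.7 and Prkcq 39.5. The means of the other types were 8.41, 2.72, 8.50 and 5.55. Cngb1 averaged 12.8 in 40_M1dup, below its level in 33_M1.

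Sst (2.41 ± 0.66) and Tmem119 (2.19 ± 0.08) were also among the 15 highest ratios. With the cells that had Opn4 only, the ratio was -0.72 for Sst, 0.15 for Tmem119, 0.76 for Tac2 and 0.69 for Cd9. The lowest ratios were those of Penk (-1.92 ± 0.25), the enkephalin precursor gene, and of the transcription factor genes Isl2 (-1.90 ± 0.16) and Pou4f3 (-1.87 ± 0.27), which mark other RGCs. Pcdh17, Neurod2, Gabra2, Tfap2d, Tmem163, Syndig1l and Mmp9 followed, between -1.64 and -1.29.

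Over the whole panel 11.3% of genes were at least 2-fold higher and 2.67% lower. Of the 6 ipRGC genes 4 were at least 2-fold higher (Opn4, Eomes, Tbx20 and Prkcq) and none lower, with a list median of 2.44, where the median over all 300 genes was 0.19. Igf1 had a ratio of 0.77 ± 0.19 and Spon1 of -0.55 ± 0.26. Of 19 RGC transcription factor genes 3 were higher (Eomes, Tbx20 and Ebf3) and 3 lower (Pou4f3, Isl2 and Neurod2), with a median of -0.51. Of 58 genes of voltage-gated channels and their partners 4 were higher (Kcnh1, Kcnip2, Scn3b and Scn9a), a smaller share than over the panel, and none lower, with a median of -0.21.

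Of the 7 general RGC markers 2 were at least 2-fold lower in 33_M1 (Isl2 and Pou4f3) and none higher (median -0.86), and Isl1 had a ratio of -0.09. Of 14 glutamate receptor genes Gria1 alone was higher (1.61 ± 0.25), and of 15 GABA and glycine receptor genes Gabra2 alone was lower (-1.56 ± 0.14). Of 7 neuropeptide and hormone genes Gal and Sst were higher and Penk lower. Of the 14 amacrine markers 3 were higher (Gad2, Th and Sst), and both microglial markers were.

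The gene profile of 33_M1 was most like that of 40_M1dup (Spearman 0.961 over the 299 genes other than Opn4), then 31_M2 (0.862) and 08_Novel (0.861). Over the 45 types, the genes whose mean puncta per cell followed that of Opn4 most closely were Prkcq (Spearman 0.832), Prph (0.811), Igf1 (0.775), Lmo2 (0.746) and Ctxn3 (0.743). The types share their libraries and differ in depth.

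Against 40_M1dup few genes stood apart. Kcnip2 and Sst were at least 2-fold higher in 33_M1 in all 5 retinas (2 of 300, 0.667%), and Lxn, Cpne4, Cd24a and Igf1 at least 2-fold lower (4 of 300, 1.33%). Lxn, the gene of the carboxypeptidase inhibitor latexin, averaged 10.0 ± 1.74 puncta per 10000 in 33_M1, against 132 ± 36.2 in 40_M1dup, a log2 ratio of -3.62 ± 0.22. Cd24a, a cell surface glycoprotein gene, averaged 90.3 ± 18.2 in 33_M1 and 274 ± 36.2 in 40_M1dup. The ranges of 33_M1 and 40_M1dup are also apart for Igf1, at 57.7 to 88.7 against 148 to 237.

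Gal, the galanin gene, averaged 9.22 ± 1.45 in 33_M1 and 29.2 ± 8.34 in 40_M1dup. In the other direction, Kcnip2, the gene of a potassium channel partner, averaged 21.5 ± 2.54 in 33_M1 and 6.84 ± 1.97 in 40_M1dup. Grm4, a metabotropic glutamate receptor gene, averaged 44.9 ± 1.82 in 33_M1 and 20.0 ± 4.11 in 40_M1dup. These genes did not depend on cells without Opn4 for their direction, whereas Sst and Aif1 did: with the cells that had Opn4 only, their ratios over 40_M1dup were -0.49 and -0.73, in place of 2.64 ± 0.17 and 1.26 ± 1.00. Tmem119 (2.30 ± 1.71), Serpine2 (1.60 ± 0.98) and Cdh5 (1.60 ± 1.36) were also among the highest ratios, with a wide spread over retinas. The marker ratios were -0.93 ± 0.14 for Opn4, -0.94 ± 0.20 for Tbx20 and 0.20 ± 0.14 for Eomes, which turned to -0.24 in puncta per cell.

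The 33_M1 cells were more frequent in the outer retina. Positions that the authors scaled to a circle were divided at a radius of 0.5. In the periphery 33_M1 made up 1.15%, 1.21%, 1.46%, 1.23% and 1.5% of RGCs in retinas 1 to 5, against 0.934%, 0.845%, 1.2%, 0.717% and 0.935% in the centre. The sets overlapped slightly, but every retina was higher in the periphery, by a log2 ratio of 0.51 ± 0.10 (SE, edgeR quasi-likelihood test on cell counts with the retina as a block, adjusted p = 0.00164). Of the 45 types 42.2% passed this test in either direction, so such a shift was common among types. An exact permutation test that flips the signs of the 5 retina differences (two-sided) gave p = 0.0625, the smallest it can give.

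In rings of the scaled radius, the share of 33_M1 was 0.801% ± 0.331 within 0.2, 0.903% ± 0.207 from 0.2 to 0.4, 1.08% ± 0.272 from 0.4 to 0.6, 1.19% ± 0.218 from 0.6 to 0.8 and 1.70% ± 0.487 beyond. The outermost ring was the highest in 4 of 5 retinas, and in retina 5 the ring from 0.6 to 0.8 was. Cells with Opn4 made up 0.767% ± 0.0438 of RGCs in the periphery and 0.470% ± 0.108 in the centre, with a higher share in the periphery of 5 of 5 retinas. Cells without Opn4 made up 0.545% ± 0.132 in the periphery and 0.455% ± 0.103 in the centre, with a higher share in the periphery of 4 of 5.

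The types 40_M1dup (0.71 ± 0.15, adjusted p = 0.00173) and 31_M2 (0.37 ± 0.08, adjusted p = 0.00199) were also more frequent peripherally in the same edgeR fit, and 22_M5 did not pass (-0.04 ± 0.11, adjusted p = 0.787).

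**Figure D4:**
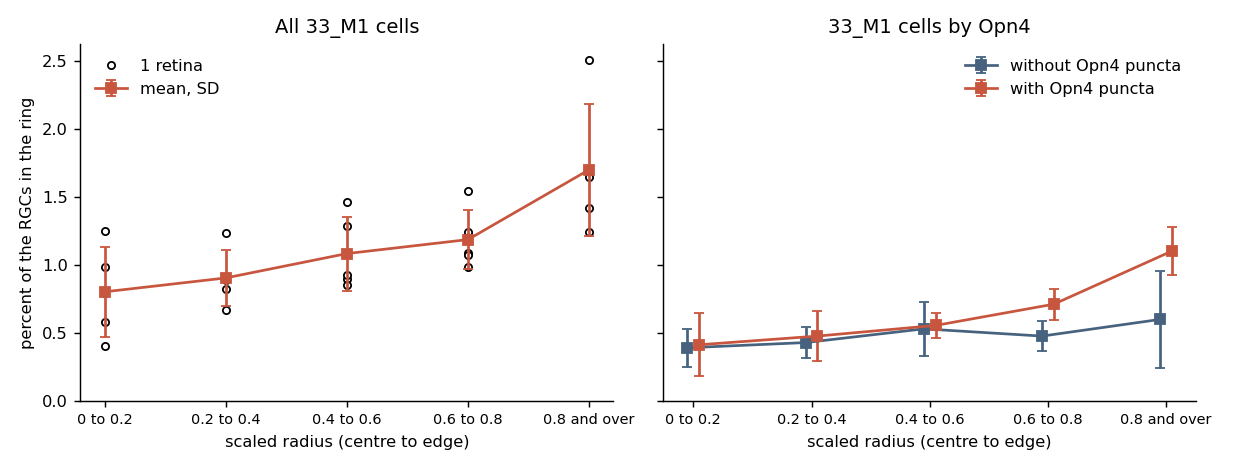
Share of 33_M1 among the RGCs (percent) in 5 rings of the scaled radius, for all 33_M1 cells and for cells without and with Opn4, as means ± SD over 5 retinas. The mean share of all 33_M1 cells was 0.801% in the innermost ring and 1.70% in the outermost.

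Along the X axis, divided at 0 and with no anatomical direction in the sources used here, 33_M1 made up 1.28% ± 0.209 of RGCs at 0 and over and 1.03% ± 0.0733 under 0. All 5 retinas had the higher share at 0 and over, but the log2 ratio of 0.27 ± 0.09 did not pass (edgeR, adjusted p = 0.0619), where 28.9% of types did. With sections as blocks it was 0.40 and passed (adjusted p = 0.00126). Along the Y axis the shares were 1.19% ± 0.0682 at 0 and over and 1.13% ± 0.173 under 0, a ratio of 0.09 ± 0.11 that did not pass (edgeR, adjusted p = 0.503). Along Y 0.0% of the types passed in edgeR, 16 of 45 had an unadjusted p under 0.05, and 1 passed in limma.

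Within 33_M1, 3 of 265 genes tested changed between periphery and centre, and these 3 rose in the periphery. Over all types 2.23% of type-gene pairs passed, 1.52% with a higher level in the periphery, and 36 genes of 33_M1 had an unadjusted p under 0.05. Cdkn1c had 76.5, 60.9, 38.6, 73.1 and 23.6 puncta per 10000 in peripheral 33_M1 cells of retinas 1 to 5, against 42.0, 29.9, 21, 23.1 and 18.7 in central ones. The sets overlapped, but each retina was higher in the periphery, by 1.01 ± 0.15 on the log2 scale (edgeR, adjusted p = 0.00507).

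Gal had 8.63, 11.2, 10.8, 14.3 and 11.2 puncta per 10000 in peripheral 33_M1 cells, against 4.66, 4.33, 6.16, 2.50 and 5.09 in central ones. The sets did not overlap, and the log2 change was 1.30 ± 0.27 (edgeR, adjusted p = 0.0307) on 287 and 47 puncta. Nell1 had 96.7, 93.2, 80.3, 111 and 105 in peripheral cells, against 63.4, 55.1, 71.8, 73.2 and 77.0 in central ones. These sets did not overlap either, and the change was 0.55 ± 0.10 (edgeR, adjusted p = 0.0192).

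Single retinas and blocks decided part of these calls. Without retina 2, 4 or 5 Gal and Nell1 no longer passed, with adjusted p between 0.0815 and 0.112 in edgeR, and the number of genes called ran from 1 to 5 over the 5 fits that left out a retina. Gal did not pass in DESeq2 (adjusted p = 0.0523) or with slides or sections as blocks either (adjusted p = 0.0649 and 0.123 in edgeR). With sections as blocks the change of Cdkn1c was 0.58 and did not pass (adjusted p = 0.215 in edgeR). Opn4 averaged 153 ± 32.7 in the periphery and 123 ± 24.1 in the centre. It was higher in the periphery in 5 of 5 retinas, but its change of 0.34 ± 0.08 did not pass (edgeR, adjusted p = 0.0663). With the cells that had Opn4 only, a choice that uses Opn4 itself, its change was 0.11 (edgeR, adjusted p = 0.696). Eomes (0.29 ± 0.10, adjusted p = 0.171) and Tbx20 (-0.04 ± 0.16, adjusted p = 0.946) did not pass in edgeR.

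The radial change in 33_M1 was set against that in all other types combined. The difference passed for 1 of 300 genes (0.333%), Nell1, at 0.55 ± 0.12 on the log2 scale (edgeR, adjusted p = 0.0218). In the other types Nell1 averaged 39.2 puncta per 10000 in the periphery and 39.0 in the centre. Among ipRGCs it was not particular to 33_M1: Nell1 rose by 1.5 in 31_M2 (edgeR, adjusted p = 0.0157), and against the other 3 ipRGC types the difference was -0.68 and did not pass (adjusted p = 0.518). Without retina 2 or retina 4 Nell1 no longer passed against all other types (edgeR, adjusted p = 0.28 and 0.0885), nor with the cells that had Opn4 only (0.38, adjusted p = 0.216).

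Along X 2 of 276 genes changed within 33_M1, and both rose at 0 and over, where 0.178% of all type-gene pairs did. Cdkn1c had 91.2, 69.4, 41.6, 86.4 and 23.7 puncta per 10000 at 0 and over, against 33, 28.7, 19.2, 26.7 and 18.3 under 0, a log2 change of 1.33 ± 0.14 (edgeR, adjusted p = 0.000753). Gad2, the gene of a GABA-synthesis enzyme, had 64.5, 56.6, 38.7, 67.3 and 38.9 at 0 and over, against 32.0, 43.5, 26.8, 38.1 and 27.2 under 0, a change of 0.70 ± 0.11 (edgeR, adjusted p = 0.0259). For both genes the sets overlapped and each retina was higher at 0 and over.

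Gad2 is also an amacrine marker, and at 45.1 ± 10.7 puncta per 10000 its level was higher in 33_M1 than in any other type. It was not raised in cells without Opn4, at 31.8 ± 9.30 against 52.1 ± 12.2 with Opn4. With sections as blocks neither gene passed along X, and Gad2 did not pass with slides as blocks or without retina 1 (adjusted p = 0.105 and 0.158 in edgeR). The X change in 33_M1 differed from that in all other types for 0 of 300 genes in edgeR (0.0%), with 18 genes at an unadjusted p under 0.05. Along Y 0 of 271 genes of 33_M1 passed in edgeR, where 0.365% of all pairs did (0.13% with a higher level at 0 and over). An unadjusted p under 0.05 was reached by 18 genes, and 0 passed in DESeq2. Nell1 was higher at Y of 0 and over in 4 of 5 retinas (log2 change 0.78 ± 0.29, edgeR, adjusted p = 0.32). In retina 5 Nell1 had 75.8 puncta per 10000 at 0 and over against 117 under 0. Gal was also higher in 4 of 5 (0.47 ± 0.29, edgeR, adjusted p = 0.585). Cdkn1c was higher at 0 and over in 2 of 5 retinas (-0.98 ± 0.35, edgeR, adjusted p = 0.31). Gad2 was higher in 1 of 5 (-0.53 ± 0.19, edgeR, adjusted p = 0.32).

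**Figure D5:**
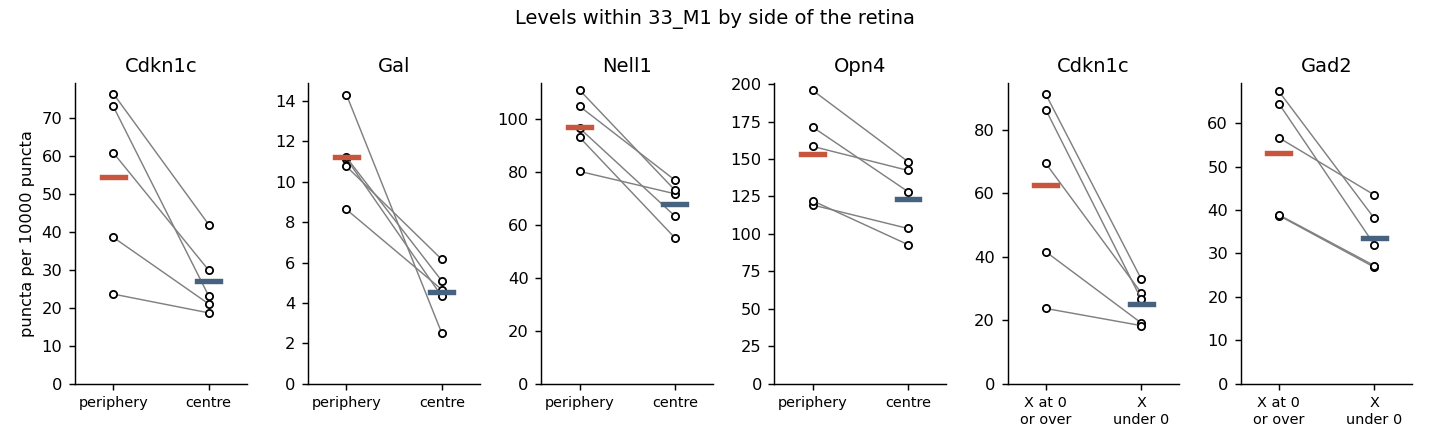
Levels within 33_M1 in puncta per 10000 puncta, periphery against centre (Cdkn1c, Gal, Nell1, Opn4) and X at 0 or over against X under 0 (Cdkn1c, Gad2). Lines join the 2 sides of a retina; each line falls to the right, and of these changes that of Opn4 did not pass (adjusted p = 0.0663 in edgeR).

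The deposited volume of 33_M1 cells was the second smallest of the 45 types. Its unit is not stated, and in nearly all cells not joined from parts it is the ellipsoid of the cell's extent. The median volume in retinas 1 to 5 was 473, 474, 499, 421 and 503 in 33_M1, against 607, 651, 713, 553 and 625 in 40_M1dup. The sets did not overlap, and the log2 ratio was -0.41 ± 0.04 (limma, adjusted p = 4.48e-18), where 70.5% of types passed against 40_M1dup. With 1 retina left out it passed each time, with adjusted p between 2.58e-19 and 3.08e-05, the weakest without retina 3 or 2. These ratios share the same 40_M1dup values, and the exact sign-flip permutation test (two-sided, 5 retinas) gave p = 0.0625, its smallest. Against the other types the ratio was -0.35 ± 0.02 (limma, adjusted p = 4.77e-07), where 68.9% of types passed.

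Volume moved with depth: over 33_M1 cells its Spearman correlation with the number of puncta was 0.69 (1468 cells). Among cells with at least 200 puncta the log2 ratio was -0.15 against 40_M1dup and -0.17 against the other types, and both passed (limma, adjusted p = 0.000119 and 3.54e-06). Among cells with 150 to 250 puncta, a range set after seeing the data, it was 0.035 against 40_M1dup and -0.0573 against the other types, and neither passed (limma, adjusted p = 0.707 and 0.221). Depth still differed in this range, with retina medians of 189 to 195 puncta in 33_M1 and 204 to 215 in 40_M1dup. The range held 17 to 50 cells of 40_M1dup per retina. Between periphery and centre volume did not pass either (0.02 ± 0.07, limma, adjusted p = 0.99), where 2.22% of types did.

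The nearest 33_M1 cell to a 33_M1 cell lay at a median of 107 ± 12.3 position units (the unit is not stated), against 143 ± 35.4 between 40_M1dup cells. To allow for the local density of RGCs, the rank of the nearest cell of the same type among all neighbours was divided by the rank that random positions give. This ratio was 1.08, 1.06, 1.11, 1.14 and 1.10 for 33_M1 in retinas 1 to 5, against 0.958, 0.974, 1.22, 0.981 and 0.912 for 40_M1dup. It was above 1 for 33_M1 in every retina and for 40_M1dup in retina 3 only. The mean of 33_M1, 1.10, held rank 13 from the lowest among the 45 types, and the highest was 1.32 in 06_W3B. The means of 31_M2 and 22_M5 were 1.04 and 1.03. Against the other types 33_M1 did not pass (log2 difference -0.04 ± 0.03, limma, adjusted p = 0.279), where 51.1% of types did. With distance in place of rank the difference was 0.18 and passed, and with positions scaled to the retina it was -0.15 and passed, so its direction depended on the measure.

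Around 33_M1 cells, the nearest cell of 07_Novel was the farthest in rank, at 2.42 ± 0.375 times the rank that random positions give. The nearest 22_M5 cell followed at 1.76 ± 0.521 and 39_Novel at 1.64 ± 0.423. The lowest ratio was that of 06_W3B at 0.80 ± 0.0334, and 40_M1dup stood at 1.10 ± 0.214. Both 07_Novel (-0.23 ± 0.08, adjusted p = 0.0336) and 39_Novel (-0.28 ± 0.09, adjusted p = 0.0157) were less frequent in the periphery in edgeR, whereas 22_M5 did not pass (-0.04 ± 0.11, adjusted p = 0.787). Along Y their log2 share ratios were larger in size, at -0.89 ± 0.30 for 07_Novel, -0.72 ± 0.23 for 39_Novel and -0.63 ± 0.39 for 22_M5. None of these passed (edgeR, adjusted p = 0.0984, 0.0984 and 0.263). The part of such radial and Y gradients in these ranks was not tested.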

How the data were processed

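Transcripts were measured by Xenium imaging of 41 sections on 8 slides from 5 retinas. The labels list 4 samples, each a pair of slides, with no map to retinas, so the retina column of the deposited table defined the replicates; 1 slide held retinas 4 and 5 and 1 held retinas 3 and 5. Per the file headers and the labels, the deposited values are raw puncta counts per gene and cell, beside a type, a volume and positions; the deposited volume and positions (other units) carry no unit in the file. Each cell held at least 100 puncta.

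Counts were summed per retina and side (at least 50 cells of a type on each side in at least 3 retinas) and tested with edgeR 4.0.16 (TMM, quasi-likelihood, retina as a block, since both sides come from the same retina), with p-values adjusted over every pair of a type and a gene along an axis. Type shares were tested with edgeR on cell counts, and volume and spacing with limma 3.58.1, over all types. A call is an adjusted p under 0.05. DESeq2 1.42.0 and other settings were alternatives. The fits were tested on simulated data: along the radius 71.7% of simulated 1.5-fold and 97.7% of simulated 2-fold changes in 33_M1 were recovered (268 genes). In that simulation all genes had the same fixed dispersion, not estimated from these data. Most genes were changed in it, and the side effect did not differ between retinas. Its p-values were adjusted over the 268 genes of a single fit, not over the 10755 type-gene pairs of the actual test. These shares can therefore exceed what the actual test recovers.

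The members and gene lists were chosen with earlier results of these data known. Levels between types are a description. Named genes were the 15 highest and 10 lowest log2 ratios among genes with at least 100 puncta and the same direction in all 5 retinas, those past the threshold along an axis, the ipRGC genes, and the 5 genes most like Opn4 over the types; 1 gene that the rule names is not reported here. Python 3.11.15 and R 4.3.3 were used.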

Additional observations from a re-analysis of the deposited data

Results flagged for a closer look

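In 40_M1dup, 41.9% of the cells of retina 5 had no Opn4 punctum, far from the 13.1% to 18.4% of the other 4 retinas. The Tfap2d ratio of 33_M1 over the other types was -0.94 in 1 retina, against -1.82 to -1.57 in the other 4. The Penk ratio was -1.49 in 1 retina, against -2.08 to -1.97 in the other 4. The Tmem119 ratio was 2.05 in 1 retina and 2.19 to 2.24 in the other 4, a narrow range in which a small gap stands out. These 4 stood out among 74 groups of 5 retinas examined, and chance marks about 1 in 20. The radial change of Nell1 in 33_M1 exceeded that in all other types combined by 0.55 on the log2 scale, and this difference itself passed the edgeR interaction test. In the single type 31_M2 the change was higher, at 1.5, and against the other 3 ipRGC types the difference was -0.68 and did not pass.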

How the results depend on the processing

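Over 78 results and 462 alternative values, the higher share of 33_M1 in the periphery kept its direction and its call in each alternative run, with 0.45 to 0.57 when 1 retina was left out. Without the replicate block (no retina term) its log2 ratio was 0.48 and passed, while 0 genes within 33_M1 passed along the radius, 0 along X and 0 differed from all other types along the radius; the pairing comes from both sides lying in the same retina. The radial gene count was 8 with the division at the median position, 5 with the Opn4 cells only, and 1 to 5 with 1 retina left out. Tbx20 along the radius turned to 0.0106 with sections as blocks and ran from -0.27 to 0.032 with 1 retina left out. The X share passed with sections (0.40) or slides (0.34) as blocks, without small sections (0.31), at the median division (0.30), in limma (0.30) and with the Opn4 cells only (0.43). The X gene count was 1 with slides and 0 with sections as blocks, and 1 to 3 with 1 retina left out. The Y count was 3 with sections as blocks and 0 to 2 with 1 retina left out. Genes with a radial change unlike all other types numbered 2 in DESeq2, 2 at the median division, 0 against the other 3 ipRGC types (Nell1 -0.68) and 0 to 2 with 1 retina left out; along X they numbered 0 to 1. Volume was -0.0573 against the other types and 0.035 against 40_M1dup at 150 to 250 puncta. Along the radius it was -0.0352 in cells of at least 200 puncta, -0.13 with the Opn4 cells only, -0.11 by hull volume, and -0.0421 to 0.0774 with 1 retina left out. Spacing was 0.18 by distance and -0.15 in scaled positions. In puncta per cell, where 33_M1 is shallower, 21 genes were higher and 29 lower than in the other types, and 1 higher and 12 lower than in 40_M1dup, with Eomes at -0.24. With the Opn4 cells only, 18 genes were lower than in the other types, Sst was -0.72 against the other types, and Sst (-0.49) and Aif1 (-0.73) turned against 40_M1dup. Genes higher than in 40_M1dup numbered 2 to 5 with 1 retina left out. Where no construction of the alternative shows it, the cause was not tested. Depth limits genes such as Gal, with 47 puncta in the central 33_M1 cells.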
